A study of Homo sapiens with 10 samples.

Results

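The direct comparison of THZ531 with Endovion in 22RV1 cells is described here, gene by gene, without the control cells in between. It rests on 4 of the 10 SLAM-seq libraries analysed in the series, the 2 titled THZ531 and the 2 titled Endovion, chosen by their titles. All libraries come from 22RV1, an established cell line derived from castration-resistant cancer of the prostate. THZ531 inhibits CDK12 and was given at 100 nM according to the methods, while the text of the series has 150 nM; Endovion, also called SCO-101, was given at 50 µM as an inhibitor of SRPK1. Both treatments lasted 4 h, and all cells carried 4-thiouridine, a uridine analog that enters new RNA, for the last 10 min. Each inhibitor was used at 1 dose and 1 time, so the comparison sets these doses side by side and not the 2 targets at matched inhibition. Per the paper Endovion also acts on drug efflux pumps, and effects through other targets of either inhibitor were not set apart. Nothing in the labels says that the replicates were separate cultures, so the p-values measure the spread between these libraries, which may be technical. The 2 control libraries enter no test, and their values stand beside those of the treated cells as a description.

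CDK12 is a cyclin-dependent kinase that phosphorylates the tail of RNA polymerase II during elongation. Its loss is known for reducing the full-length mRNAs of long genes, DNA repair genes among them, and for the use of polyadenylation sites inside introns. SRPK1 phosphorylates SR proteins, the splicing factors rich in serine and arginine, and controls their entry into the nucleus. In SLAM-seq the alkylated 4-thiouridine shows up as a C where the genome has T. A read with such a T>C conversion is taken here to come from RNA made during labelling (nascent RNA), and all reads together give total RNA. All libraries were labelled, so T>C reads that arise without the label were not measured. Levels are given as CPM, the reads of a gene scaled to the sum of all reads on genes in the library, and as T>C CPM, the T>C reads of a gene scaled in the same way to the sum of the T>C reads. The libraries read the 3′ ends of polyadenylated transcripts.

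The 4 libraries held between 19565687 and 27983188 reads on genes, of which between 1023872 and 1576106 carried a T>C conversion. The T>C share was 5.63% and 5.23% with THZ531 and 5.06% and 5.17% with Endovion, and the exact binomial 95% intervals, which cover counting error only, were at their widest in THZ531 replicate 2, from 5.22% to 5.24%. Both THZ531 libraries lay above both Endovion libraries. The means were 5.43% ± 0.282 and 5.11% ± 0.0737 (SD, n = 2 each), a difference of 0.319 percentage points with an exact two-sided permutation p of 0.33, the smallest that 2 libraries against 2 allow. The controls had 5.70% and 5.63%. All 10 markers of prostate luminal epithelium had reads and summed to between 1540.0 and 1597 CPM with THZ531 and between 1827 and 1882 with Endovion. Gene by gene, 6 of the 10 were higher with THZ531 and 4 lower, with a median log2 difference (THZ531 minus Endovion) of 0.19. The sum thus does not give the direction of most markers. Summed markers of basal epithelium, fibroblasts and leukocytes stayed at or below 4.04 CPM, and the 4 of endothelium were at 0.

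More genes were higher with Endovion than with THZ531, in nascent and in total RNA. Of 8627 genes tested in nascent RNA, 123 (1.43%) were higher with THZ531 and 186 (2.16%) were higher with Endovion at an adjusted p under 0.05 (edgeR quasi-likelihood test, Benjamini-Hochberg adjustment, log2 difference taken as THZ531 minus Endovion). At the threshold of the study, an unadjusted p under 0.05 with a log2 difference of at least 1 in size, the counts were 242 (2.81%) and 470 (5.45%). Of 13731 genes tested in total RNA, 943 (6.87%) were higher with THZ531 and 1727 (12.6%) with Endovion by the edgeR adjusted p. These total RNA counts were 395 and 911 without Endovion replicate 1, 482 and 973 without Endovion replicate 2 and 1540 and 2060 without THZ531 replicate 1. The direction of the nascent split depended on the scaling. With T>C reads scaled by the size of the whole libraries, which moved the median log2 difference of all genes from 0.008 to 0.123, 221 genes were higher with THZ531 and 157 with Endovion, so that 58.5% and not 39.8% of the calls lay on the THZ531 side. Of the genes called in nascent RNA, 107 of 123 (87.0%) and 174 of 186 (93.5%) were called in the same direction in total RNA, which make up 11.3% and 10.1% of the calls there, and none was called in the opposite direction. T>C reads are part of all reads, so the 2 measures are not independent.

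The control libraries showed which of the inhibitors lay further from untreated cells for a gene. Among genes higher with Endovion in nascent RNA, the control mean was nearer to Endovion in 148 of 186 (79.6%). Among genes higher with THZ531, the control was nearer to Endovion in 73 of 123 (59.3%) and nearer to THZ531 in 50. In total RNA it was nearer to Endovion in 677 of 943 (71.8%) and in 1324 of 1727 (76.7%). These are positions of means, with no test.

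The genes with the smallest p on the THZ531 side ranged from a membrane protein to regulators of transcription. TMEM201, which encodes a protein of the inner nuclear membrane (chr1:9588911-9614877, plus strand, hg38), had 150.4 and 168 T>C CPM with THZ531, 20.0 and 23.2 with Endovion and 32.9 and 36.8 in control cells. The groups did not overlap, and the log2 difference was 2.93 ± 0.28 (SE; edgeR adjusted p = 5.239e-06). RCL1, a factor of ribosomal RNA processing, had 425 and 499 against 106 and 151. The log2 difference was 1.90 ± 0.19 (edgeR adjusted p = 9.841e-06), and each THZ531 library lay above each Endovion library and each control library. TAF5L, a subunit of SAGA-type histone acetyltransferase complexes, had 141.5 and 203 against 38.4 and 40.7.

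Regulators of transcription and early response genes completed that side. HEXIM1, which holds the elongation kinase P-TEFb inactive, had 264 and 488 T>C CPM with THZ531, 124 and 141 with Endovion and 76.1 and 20.7 in control cells, so that both inhibitors lay above the control and THZ531 above Endovion (log2 difference 1.55 ± 0.23, edgeR adjusted p = 0.0006334). The adjusted p of HEXIM1 missed the threshold when all 10 libraries were fitted together. JUNB, a component of the AP-1 transcription factor, had 208 and 236 against 71.5 and 99.7, and IER5L, of the family of immediate early response genes, 707 and 804 against 317 and 324. For 2 further genes on that side the counts are uncertain. RNVU1-25 belongs to the near-identical copies of the U1 small nuclear RNA, whose reads cannot be told apart, and its call also missed the threshold over all 10 libraries. The lncRNA ENSG00000261270 (chr16:56940278-56941342) lies within HERPUD1 on the same strand.

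**Figure D1:**
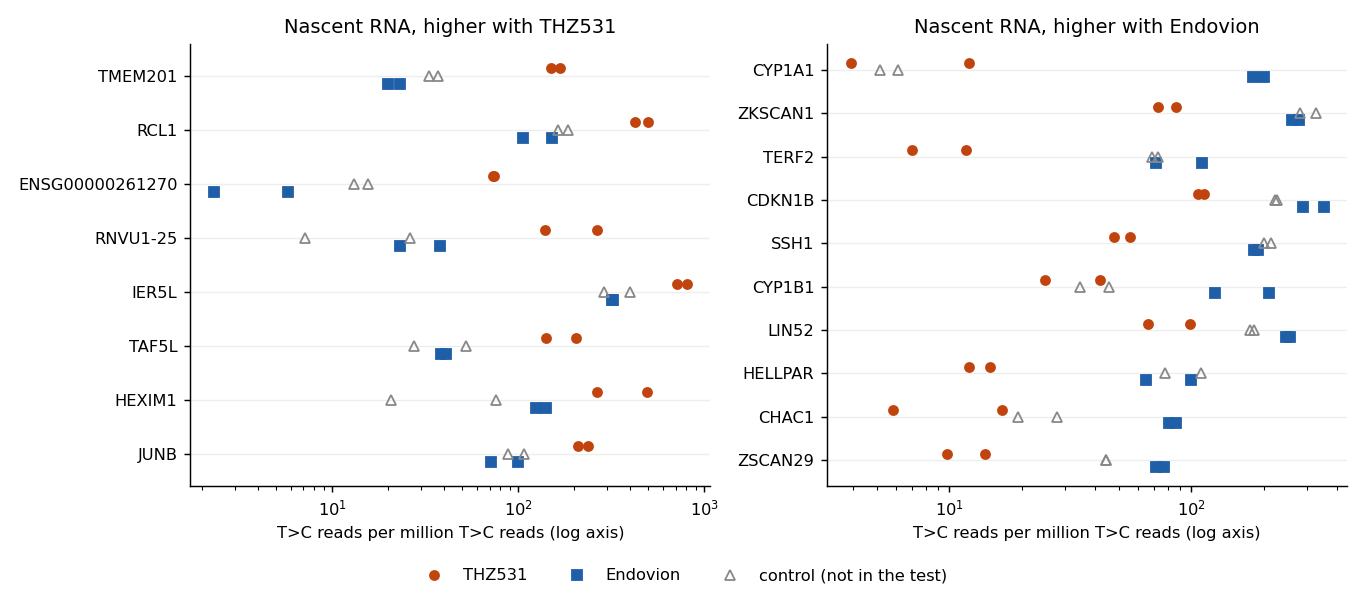
Nascent RNA in T>C CPM (log axis) of 8 of the genes with the smallest p higher with THZ531 (left) and of 10 higher with Endovion (right), with a mark for each library and open triangles for the control libraries. Both THZ531 libraries lay beyond both Endovion libraries in all 18 genes, which the rule that named them required.

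On the Endovion side CYP1A1 led. CYP1A1 encodes a monooxygenase that the aryl hydrocarbon receptor (AHR), a ligand-activated transcription factor, induces (chr15:74719542-74725536, minus strand). It had 12.1 and 3.91 T>C CPM with THZ531, 180 and 200.4 with Endovion and 5.16 and 6.13 in control cells, from 19 and 4 reads against 234 and 207. Both Endovion libraries stood far above all others (log2 difference -4.39 ± 0.34, edgeR adjusted p = 3.414e-07), and total RNA gave -4.09 ± 0.17. CYP1B1, a monooxygenase under the same receptor, had 24.7 and 42.0 against 125 and 209, with 45.8 and 34.5 in control cells (log2 difference -2.31 ± 0.31, edgeR adjusted p = 0.0001878). Among the 10 AHR targets listed, 2 of the 5 tested in nascent RNA and 4 of the 7 tested in total RNA were higher with Endovion, beside 2.16% and 12.6% of all genes, and none with THZ531.

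The other AHR targets called were low in abundance. AHRR, the repressor of the receptor, had 0.965 and 0.613 CPM with THZ531 in total RNA and 4.24 and 4.801 with Endovion, and here the controls, at 4.22 and 6.13, lay with Endovion. CYP1A2 had 0.393 and 0.460 against 1.98 and 3.75. TIPARP, an ADP-ribosylating enzyme induced by the receptor, was not among the targets called. It gave 11.1 and 18.4 against 15.4 and 19.1, with overlapping groups, and both treatments above the controls at 3.05 and 2.46. The receptor itself was higher with THZ531 in total RNA, with 12.4 and 21.2 CPM against 9.92 and 5.70 for AHR (log2 difference 1.16 ± 0.33, edgeR adjusted p = 0.03933). The promoter of CYP1A1 is shown with the core letters of the AHR response element, GCGTG, in capitals, since this gene had the smallest p of those higher with Endovion in nascent RNA. The stretch is chr15:74725556-74725610 on the minus strand of GRCh38.p14, from RefSeq, and the core begins 57 bases before the start site. GCGTG was searched on both strands of 35116 promoters, from 250 bases before to 50 after the start, and was found in 36.5% of them. It was found in 6 of the 8 AHR targets with an entry, where any promoter entry of a gene counted. The 36.5% counts single promoter entries and not genes, so these shares differ in unit.
CYP1A1: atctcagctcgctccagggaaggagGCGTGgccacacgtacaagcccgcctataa

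In most of the other genes with the smallest p on the Endovion side, both THZ531 libraries lay below the controls as well. ZKSCAN1, a zinc finger transcription factor, had 73.0 and 86.0 T>C CPM with THZ531, 277 and 261 with Endovion and 280.4 and 327 in control cells (log2 difference -1.72 ± 0.20, edgeR adjusted p = 4.541e-05). TERF2, a telomere-binding protein of the shelterin complex, had 6.98 and 11.7 against 71.5 and 110.4, with 72.8 and 69.0 in control cells (log2 difference -3.27 ± 0.39, edgeR adjusted p = 5.288e-05). SSH1, a phosphatase of cofilin, had 55.8 and 47.9 against 181 and 188. In these 3 genes the control libraries lay near those of Endovion. CDKN1B, an inhibitor of cyclin-dependent kinases, had 112 and 106 against 288 and 352, and LIN52, a subunit of the DREAM complex that represses cell cycle genes, 98.3 and 66.4 against 246 and 257. Their controls, at 220.5 and 226 and at 182 and 174, lay between the treatments. ZSCAN29 had 14 and 9.77 against 76.8 and 71.6, and the lncRNA HELLPAR, whose intervals overlap another gene, 12.1 and 14.7 against 99.1 and 64.9.

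In total RNA the same rule added genes with few T>C reads. PCF11, a subunit of the machinery that cleaves pre-mRNA at polyadenylation sites, had 1.64 and 1.28 CPM with THZ531, 28.4 and 27.7 with Endovion and 18.4 and 21.2 in control cells. The log2 difference was -4.17 ± 0.23 (edgeR adjusted p = 1.972e-08), and nascent RNA gave -4.53 ± 0.71 (edgeR adjusted p = 0.0009655). SMCR8, a partner of C9orf72 in autophagy, had 6.33 and 5.67 against 37.6 and 37.3. On the THZ531 side stood TUBGCP3, a component of the gamma-tubulin complex, with 16.9 and 18.4 CPM against 1.63 and 1.85 and controls at 2.09 and 1.55 (log2 difference 3.41 ± 0.25, edgeR adjusted p = 2.829e-07), and the zinc finger gene ZNF587B with 41.1 and 42.8 against 11.6 and 12.3.

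The gene sums hide a shift in where the reads of a gene lay. A gene often has several annotated 3′ ends, and with THZ531 the reads lay nearer to the start of the gene. The ends compared are annotated 3′ UTR intervals, and polyadenylation sites themselves were not mapped. This comparison was added after the values of single intervals had been seen. For each gene free of overlap with another, the most upstream (proximal) and the most downstream (distal) 3′ UTR interval with at least 200 reads over the 4 libraries were taken, if they ended at least 1000 bases apart and came from different transcripts, which gave 685 genes. The reads of both groups counted towards this limit, so an end could pass it through 1 group alone. The choice of pairs, also of those by T>C reads below, is therefore not independent of the test. The ratio of proximal to distal reads was higher with THZ531 in 379 genes (55.3%) and higher with Endovion in 9 (1.31%) at an adjusted p under 0.05 (edgeR quasi-likelihood interaction of treatment with end, library as a block). Without each library in turn the counts on the THZ531 side ran from 299 to 367. In 498 genes both THZ531 libraries lay above both Endovion libraries and in 34 below. The median log2 difference of the ratio was 1.02. Against the control means, as a description, THZ531 gave a median of 0.951 and Endovion of -0.218.

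The shift grew with the distance between the ends. Of 148 genes with ends 1 to 5 kb apart, 29 (19.6%) were more proximal with THZ531, with a median log2 difference of 0.292. Of 237 genes with ends 5 to 20 kb apart it was 126 (53.2%), with a median of 0.93, and of 300 genes with ends over 20 kb apart it was 224 (74.7%), with a median of 1.66. Both ends took part. The CPM of the proximal end differed by a median of 0.523 on the log2 scale (THZ531 minus Endovion, pseudocount 0.5) and those of the distal end by -0.308, and in the genes over 20 kb by 0.95 and -0.434. T>C reads alone gave the same direction. Of 189 genes with at least 50 T>C reads on each end, 61 (32.3%) were more proximal with THZ531 and 0 (0.0%) with Endovion, with a median of 0.95.

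**Figure D2:**
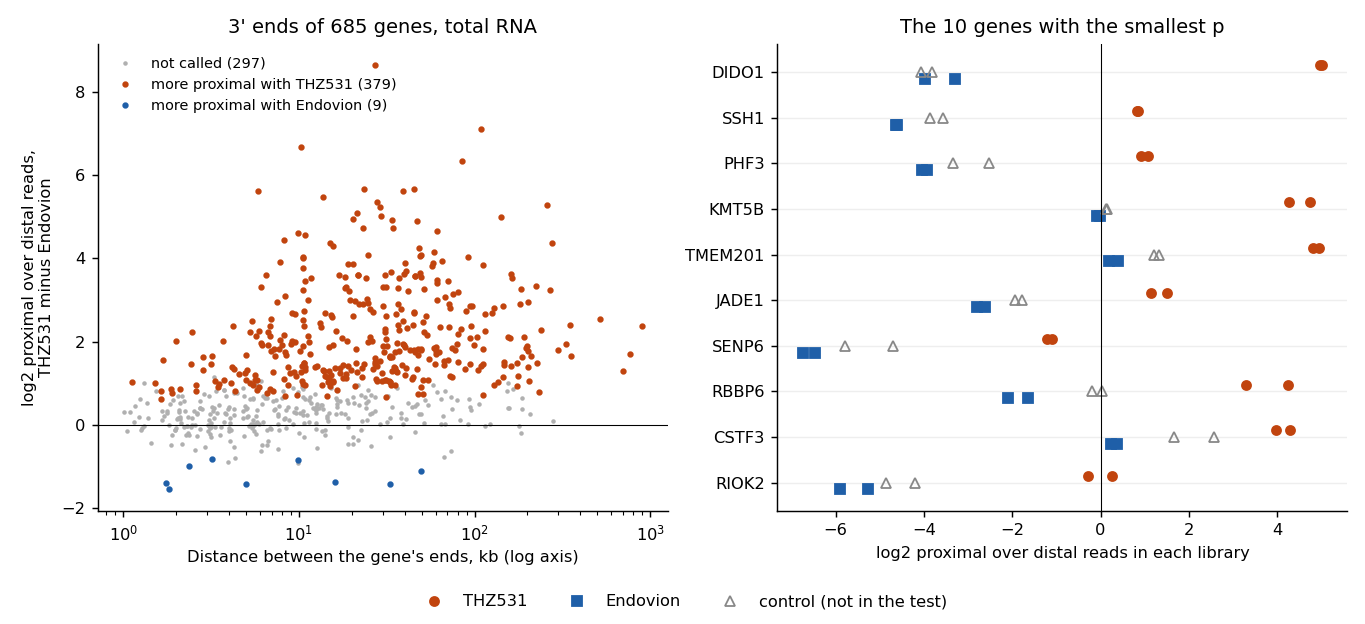
Left, the log2 ratio of proximal to distal reads in total RNA, THZ531 minus Endovion, of 685 genes against the distance between the 2 ends in kb (log axis), each point a gene. Right, the log2 ratio in each library for the 10 genes with the smallest p, with open triangles for the control libraries; the THZ531 marks lie to the right of all others in each of the 10 genes.

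Single genes show how large the shift was. DIDO1, a chromatin protein that binds RNA polymerase II, has a proximal end at chr20:62904998-62905785 and a distal end at chr20:62877738-62879232 on the minus strand, 27260 bases apart. Its proximal end had 62.5 and 60.8 CPM with THZ531, 3.07 and 2.05 with Endovion and 2.20 and 1.90 in control cells, while its distal end had 1.97 and 1.84, then 30.5 and 33.0, then 31.4 and 32.5. The proximal end of DIDO1 was the higher one with THZ531 and the distal end in the other groups (log2 difference of the ratio 8.64 ± 0.34, edgeR adjusted p = 7.766e-09). PHF3, which binds the tail of the polymerase, had 50.0 and 63.6 CPM at the proximal end against 2.45 and 2.85, and KLF3, a Krüppel-like repressor, 18.6 and 22.3 against 0.584 and 0.100. The proximal end of KLF3 rested on 15 and 2 reads with Endovion and on 6 and 4 in control cells.

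The ends also show which reads made up a called sum. The proximal end of TMEM201 had 67.5 and 77.5 CPM with THZ531 against 10.3 and 8.75, and its distal end 2.36 and 2.45 against 7.78 and 7.70, so the excess of TMEM201 with THZ531 lay at the proximal end. TAF5L was alike, with 113 and 148 against 21.4 and 21.2 at the proximal end and 12.4 and 14.8 against 23.1 and 21.1 at the distal end. SSH1 was lower with THZ531 in sum, and there the distal end gave 12.9 and 11.8 against 60.1 and 58.3 while the proximal end gave 22.8 and 21.3 against 2.37 and 2.35. Among the genes with a pair of ends, 69 of 104 (66.3%) called higher with THZ531 in total RNA and 51 of 82 (62.2%) called higher with Endovion were more proximal with THZ531, beside 55.3% of all pairs. The 9 genes that went the other way included KRT8, a luminal keratin, and RHOT1, a mitochondrial GTPase, both with most reads at the distal end.

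Some factors of cleavage and polyadenylation were among the shifted genes. Of the 20 factors listed, only 4 had a pair of ends, and these 4 were more proximal with THZ531, beside 55.3% of all pairs. RBBP6, a scaffold of the cleavage complex, had 25.8 and 25.2 CPM at the proximal end with THZ531 against 5.02 and 6.45, and 1.32 and 2.50 at the distal end, 23462 bases downstream, against 21.6 and 20.2. CSTF3, the scaffold subunit of cleavage stimulation factor, had 83.8 and 81.2 against 55.6 and 67.9 at the proximal and 5.33 and 4.09 against 47.4 and 52.2 at the distal end. In RBBP6 and CSTF3 the controls lay between the treatments at the distal end, with 11.9 and 7.47 and with 21.8 and 13, so that Endovion lay above the control there and THZ531 below. WDR33, a subunit that recognises the polyadenylation signal, and PAPOLA, the poly(A) polymerase, gave log2 differences of the ratio of 4.66 ± 0.38 and 1.40 ± 0.32 (edgeR adjusted p = 1.092e-06 and 0.002643). Only 2 of the factors had a pair in T>C reads. There CSTF3 was called, and PAPOLA was not (log2 difference 1.27 ± 0.65, edgeR adjusted p = 0.1129). In sum over the gene, RBBP6 was higher with THZ531 in nascent RNA, with 79.9 and 84.0 T>C CPM against 29.2 and 26.1, while its total RNA, at 27.1 and 27.7 CPM against 26.6 and 26.7, did not pass the test (edgeR adjusted p = 0.6719). Over the list, 1 of 19 factors tested was called on each side in nascent RNA, RBBP6 and PCF11, and 6 of 20 were higher with Endovion in total RNA, beside 12.6% of all genes, and none with THZ531. The 6 became 3 without either Endovion library, and without THZ531 replicate 1 there were 3 factors higher with THZ531.

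The calls among androgen-responsive genes lay on the THZ531 side, and most of these genes were not called. Of 20 tested in nascent RNA, 2 were higher with THZ531, beside 1.43% of all genes, and none with Endovion, with a median log2 difference of 0.23. In total RNA 8 of 27 (29.6%) were higher with THZ531, beside 6.87%, and none with Endovion. The total count was 5 without Endovion replicate 1, and without THZ531 replicate 1 nascent RNA had 1 call on each side. SLC45A3, the prostate marker prostein, had 202 and 126 T>C CPM with THZ531, 61.5 and 56.1 with Endovion and 180.5 and 139 in control cells (log2 difference 1.53 ± 0.25, edgeR adjusted p = 0.001626). PMEPA1 had 291 and 194 against 135 and 136.5. In both genes the controls lay with THZ531 and not with Endovion. Among 12 prostate transcription factors tested in nascent RNA, 3 were higher with THZ531 (ELF3, SOX9 and GATA2) and 1 with Endovion. Beside them stood 1.43% and 2.16% of all genes. The median log2 difference of these factors was -0.25, with 5 of them above 0 and 7 below. In total RNA 3 of 14 were higher with THZ531 and 4 with Endovion, beside 6.87% and 12.6% of all genes. ELF3, an epithelial ETS factor, had 134 and 139 against 53 and 41.6.

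The calls among ATF4 targets lay almost all on the Endovion side. ATF4 is the transcription factor of the integrated stress response, which is translated when the initiation factor eIF2 is phosphorylated and induces genes of amino acid supply and of the unfolded protein response. Of 37 ATF4 targets tested in nascent RNA, 10 (27.0%) were higher with Endovion and none with THZ531, beside 2.16% of all genes, and the median log2 difference was -0.58 against 0.008 for all genes. In total RNA 18 of 41 (43.9%) were higher with Endovion, beside 12.6% of all genes, and 1 with THZ531. The nascent count was 6 without THZ531 replicate 2 or without Endovion replicate 2, and the total count was 12 and 9. With all overlapping intervals of a gene summed, none of the ATF4 targets, immediate early genes, repair genes or SR factors was called in nascent RNA. In total RNA that sum still had 12 ATF4 targets higher with Endovion and 1 with THZ531.

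Promoters of 4 of the called targets are shown, each with an ATF4 composite element in capitals, since these targets, called higher with Endovion, hold it. The windows come from RefSeq (GRCh38.p14), at chr15:40953237-40953294 for CHAC1, chr16:56931941-56931998 for HERPUD1, chr16:70289661-70289718 on the minus strand for AARS1 and chr14:75427981-75428038 for JDP2. The element TGATGNAA, where N is any base, was searched on both strands and was held by 13 of the 37 ATF4 targets with an entry and by 3.62% of all 35116 promoters of that length, and it begins 209, 176, 187 and 16 bases before the start in the 4 genes. A target counted where any of its promoter entries held the element. The 3.62% counts single promoter entries and not genes, so these shares differ in unit. A match is a description of the letters.
CHAC1: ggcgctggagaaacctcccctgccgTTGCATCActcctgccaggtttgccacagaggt
HERPUD1: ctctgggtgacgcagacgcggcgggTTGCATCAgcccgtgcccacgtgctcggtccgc
AARS1: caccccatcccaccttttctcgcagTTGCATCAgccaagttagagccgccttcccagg
JDP2: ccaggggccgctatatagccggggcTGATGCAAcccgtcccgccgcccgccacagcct

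Regulators and late targets of the response are given first. CHAC1, an enzyme that degrades glutathione and a late ATF4 target, had 16.5 and 5.86 T>C CPM with THZ531, 80.7 and 86.2 with Endovion and 27.7 and 19.2 in control cells (log2 difference -2.75 ± 0.39, edgeR adjusted p = 0.0003372). DDIT3, which encodes the stress factor CHOP, had 11.4 and 15.6 against 44.6 and 42.6, with 19.3 and 26.8 in control cells, and its total RNA was 32.8 and 27.4 CPM against 85.6 and 112. In CHAC1 and DDIT3 Endovion lay above the controls and THZ531 below them. CEBPB, a partner of ATF4, had 376 and 348 against 745.5 and 797, and ATF4 itself 509 and 446 against 706 and 803, where the controls, at 607 and 631, again lay between. ATF4 had 0.445 conversions per T>C read, so part of its T>C reads have no counted conversion. TRIB3, a pseudokinase that curbs the response, had 48.9 and 42.0 against 108 and 81.3.

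Carriers and enzymes of amino acid supply followed. SLC7A11, the cystine carrier, had 151 and 154 T>C CPM with THZ531 against 310.5 and 282 (log2 difference -0.91 ± 0.18, edgeR adjusted p = 0.005541), and both treatments lay above the controls of 98.0 and 106. SLC38A2, a carrier of neutral amino acids, had 261 and 197 against 381 and 474. HERPUD1, which takes part in the degradation of misfolded proteins of the endoplasmic reticulum, had 56.5 and 41.0 against 122 and 158. AARS1, the alanyl-tRNA synthetase, had 279 and 255 against 432 and 420.2, and XPOT, which exports tRNA, 25.4 and 44.9 against 79.9 and 98.7. In total RNA JDP2, a bZIP repressor, with 5.36 and 4.45 CPM against 8.64 and 12.4, and KLHL24, with 33.8 and 26.5 against 62.3 and 74.7, were also called. ATF5, a stress factor of the same family, was the 1 target higher with THZ531, with 340.4 and 322 against 228 and 244.

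Other lists of stress genes were called on both sides or towards THZ531. Of 25 ER chaperones and targets of XBP1 or ATF6 tested in nascent RNA, 1 (4.0%) was higher with THZ531 and 2 (8.0%) with Endovion. Beside them stood 1.43% and 2.16% of all genes, and the list's median was 0.03. In total RNA 2 of 26 (7.69%) were called on each side, beside 6.87% and 12.6% of all genes. Of 18 heat shock chaperones none was called in nascent RNA, and 4 of 19 (21.1%) were higher with THZ531 in total RNA, beside 6.87% of all genes. Of 20 NRF2 targets tested in nascent RNA 1 (5.0%) was called on each side, beside 1.43% of all genes with THZ531 and 2.16% with Endovion. HMOX1, the heme oxygenase, was the one on the THZ531 side, with 59.0 and 53.7 T>C CPM against 19.2 and 22.3 and controls at 43.8 and 39.1, and SLC7A11, which both lists hold, was the other.

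**Figure D3:**
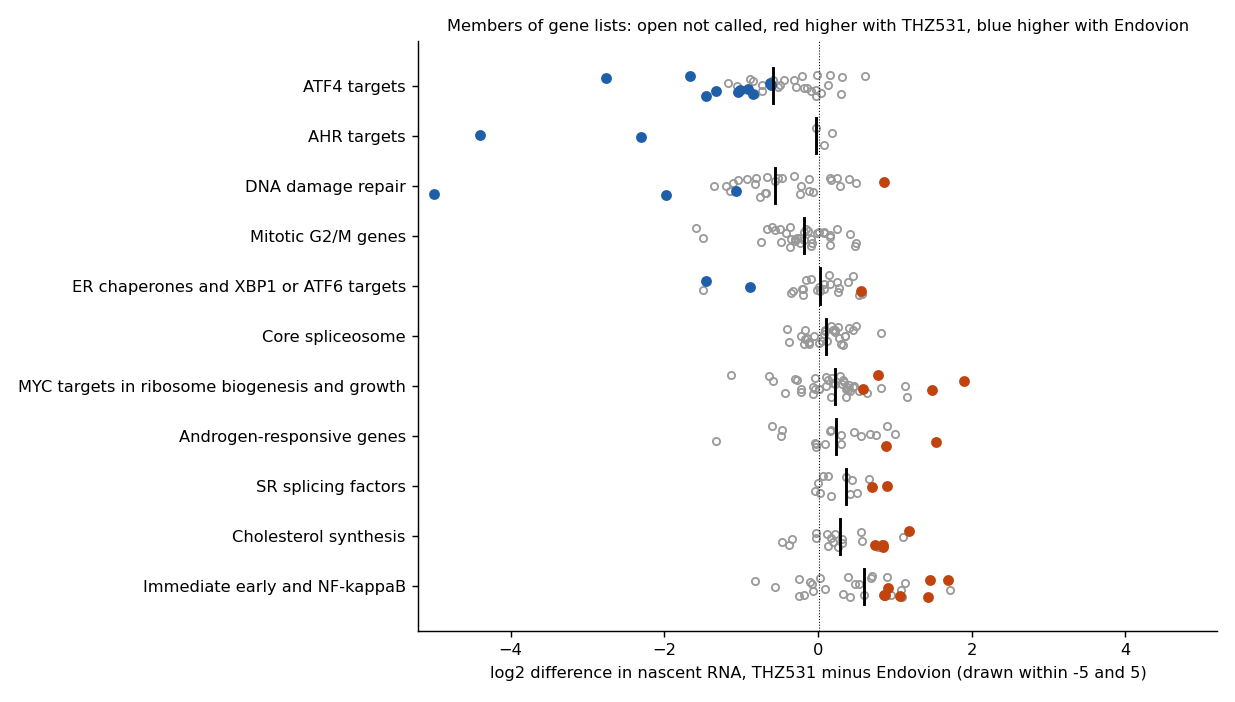
Log2 difference in nascent RNA, THZ531 minus Endovion, of the members of 11 gene lists, each point a gene, filled where the adjusted p was under 0.05; the black bar is the list's median and the dotted line that of all tested genes, 0.008. The ATF4 targets lie mostly left of the line and the immediate early genes mostly right of it, and the point at the left edge is ERCC4, which had no T>C reads with THZ531, so its place is no estimate.

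Most calls among DNA repair genes lay on the Endovion side, and in nascent RNA 27 of 31 were not called. Of 31 tested in nascent RNA, 3 (9.68%) were higher with Endovion and 1 (3.23%) with THZ531, beside 2.16% and 1.43% of all genes. Of 40 tested in total RNA, 15 (37.5%) were higher with Endovion and 2 (5.0%) with THZ531, beside 12.6% and 6.87% of all genes. The median log2 difference was -0.56 in nascent and -0.35 in total RNA. The total count was 9 without Endovion replicate 1, and without Endovion replicate 2 nascent RNA had 1 call on each side. ERCC4, the nuclease subunit of excision repair, had 0 and 0 T>C reads with THZ531 and 14 and 31 with Endovion, at least 8.44-fold higher over a floor of 3 counts per library (edgeR adjusted p = 0.004851). Its total RNA was 1.25 and 1.99 CPM against 17.4 and 17.1, with 10.3 and 13.1 in control cells (log2 difference -3.37 ± 0.27, edgeR adjusted p = 7.768e-07). FANCF, of the Fanconi anemia core complex, had 10.8 and 20.5 T>C CPM against 57.6 and 65.8, and BARD1, the partner of BRCA1, 69.8 and 46.9 against 124 and 131.

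In total RNA 23 of the 40 repair genes were not called, and those called include genes of homologous recombination. BRCA2 had 6.58 and 5.21 CPM with THZ531, 17.4 and 20.4 with Endovion and 11.2 and 11.7 in control cells (log2 difference -1.60 ± 0.21, edgeR adjusted p = 6.977e-05). BRCA1 had 79.8 and 72.3 against 133 and 140.1, PALB2, which joins the BRCA proteins, 2.79 and 4.45 against 12.1 and 8.35, and BLM, a helicase, 12.2 and 9.71 against 27.2 and 26.4. In all 4 genes the groups did not overlap, and the control libraries lay with THZ531 only in PALB2, at 2.72 and 1.64. CHEK1, the checkpoint kinase, ran the other way, with 212 and 299.8 T>C CPM against 121 and 172 (log2 difference 0.85 ± 0.21, edgeR adjusted p = 0.02888). FANCA was called higher with THZ531 in total RNA through its proximal end, which had 26.8 and 26.1 CPM against 3.46 and 2.90, while the distal end, 60836 bases away, had 23.3 and 20.8 against 25.8 and 31.6. Of 9 repair genes with a pair of ends, 5 (55.6%) were more proximal with THZ531, a share near the 55.3% of all pairs: FANCA, FANCI, FANCC, RAD51C and FANCD2. In T>C reads 1 of 3 repair genes with a pair (33.3%) was, FANCA, beside 32.3% of all pairs. RAD51C was not called there (edgeR adjusted p = 0.4815).

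**Figure D4:**
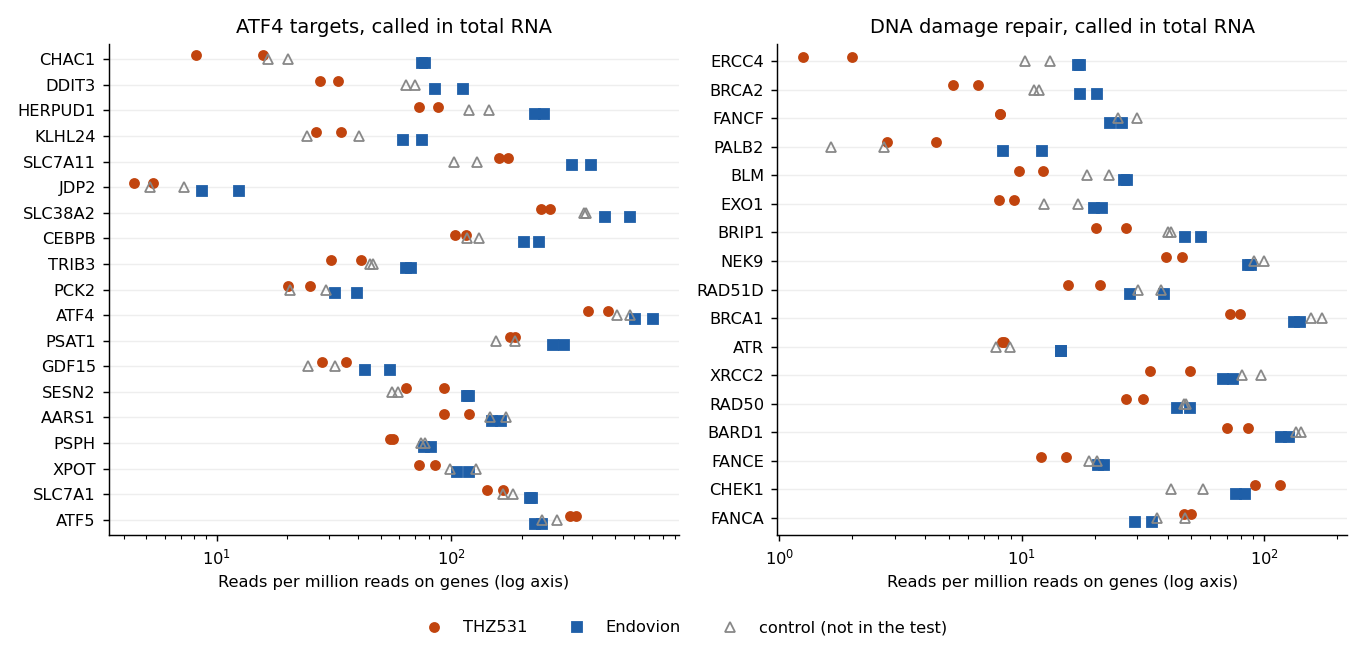
Total RNA in CPM (log axis) of the ATF4 targets (left) and DNA repair genes (right) called in total RNA, with a mark for each library and open triangles for the control libraries. Of the ATF4 targets 18 of 19 called genes and of the repair genes 15 of 17 called genes lie higher with Endovion.

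Most calls among immediate early genes and targets of NF-κB lay on the THZ531 side. Of 31 tested in nascent RNA, 7 (22.6%) were higher with THZ531 and none with Endovion, beside 1.43% of all genes, and the median log2 difference was 0.61. Without genes that had over 20% T>C reads in a control library, 4 of 23 were higher with THZ531. Beside them stood 108 of about 8220 genes in all. In total RNA 16 of 45 (35.6%) were higher with THZ531, beside 6.87%, and 3 with Endovion; the first of these counts was 10 without Endovion replicate 1. BTG1, an antiproliferative factor, had 4953 and 4860.0 T>C CPM with THZ531, 2728 and 2834 with Endovion and 4711 and 5173 in control cells (log2 difference 0.87 ± 0.13, edgeR adjusted p = 0.0006334) and the controls lay with THZ531. GADD45A, a stress sensor of growth arrest, had 57.1 and 55.7 against 18.4 and 24.2, and GADD45B 26.6 and 42.0 against 9.22 and 12.6, with the controls at or near the Endovion level. ZFP36L1, which speeds the decay of mRNAs with AU-rich elements, had 417.5 and 406 against 207 and 247, and ZFP36L2 and TOB1, a further antiproliferative factor, were also called. The 3 genes higher with Endovion in total RNA were JUN, with 69.7 and 85.0 CPM against 132.5 and 119.5, EGR1 and RELB.

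Calls among genes of cholesterol synthesis and SR proteins lay on the THZ531 side too. Of 22 cholesterol genes tested in nascent RNA 4 (18.2%) were higher with THZ531, beside 1.43% of all genes, and none with Endovion, and in total RNA 11 of 27 (40.7%), beside 6.87%, and none. The total count was 5 without Endovion replicate 2. HMGCS1, which makes the precursor of mevalonate, had 349 and 325 T>C CPM with THZ531, 191 and 196 with Endovion and 338.5 and 259 in control cells, and MSMO1, a later enzyme, 180 and 134 against 69.9 and 73.6, with 164 and 149.5. CYP51A1 had 358 and 322 against 184 and 237. The controls lay nearer to THZ531 in HMGCS1 and MSMO1 and nearer to Endovion in CYP51A1, at 291 and 229. Of 13 SR splicing factors, the substrates of SRPK1, SRSF6 and SRSF7 were higher with THZ531 in nascent RNA, SRSF6 with 254 and 233 T>C CPM against 125 and 145 and controls at 188 and 179, and 6 of 14 (42.9%) in total RNA, against the same shares of all genes. Without Endovion replicate 1 the SR factors had 0 calls in nascent and 3 in total RNA.

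The targets of the inhibitors themselves did not pass the test. CDK12 had 69.2 and 59.6 T>C CPM with THZ531 and 50.0 and 69.7 with Endovion, and SRPK1 73.0 and 77.2 against 86.8 and 84.2. Of 23 elongation kinases and their partners, 2 (8.7%) were higher with THZ531 in nascent RNA, beside 1.43% of all genes, and none with Endovion. They were HEXIM1 and RTF1, a factor of the PAF1 group, which had 148.5 and 147.5 T>C CPM against 89.9 and 72.6. None of 30 core spliceosome genes, 11 subunits of RNA polymerase II or 6 splicing kinases was called in nascent RNA. Of 43 MYC targets in ribosome biogenesis and growth, 4 (9.30%) were higher with THZ531, beside 1.43% of all genes, and none with Endovion in nascent RNA, and 12 (25.5%) and 2 (4.26%) of 47 in total RNA, beside 6.87% and 12.6%, where those higher with THZ531 numbered 3 without Endovion replicate 1. Of 35 mitotic genes none was called in nascent RNA, and 7 (20.0%) were higher with Endovion, beside 12.6% of all genes, and 1 with THZ531 in total RNA. Without Endovion replicate 2 the mitotic genes had 1 call on each side and without replicate 1 they had 4 and none. None of 22 stable mRNAs was called in nascent RNA and none of 23 in total RNA. Of 21 short-lived mRNAs, 5 (23.8%) were higher with THZ531 in nascent RNA, beside 1.43% of all genes, and none with Endovion. In total RNA 5 (22.7%) and 4 (18.2%) of 22 were, beside 6.87% and 12.6%.

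The study asked how the inhibitors act on short and long genes. In nascent RNA the 506 protein-coding genes with over 15 kb of exon sequence had 4 calls on the THZ531 side (0.791%) and 15 on the Endovion side (2.96%), beside 1.35% and 2.13% of all protein-coding genes, and the 92 genes under 1 kb had 1 on each side. By genomic span the genes under 10 kb had 29 and 26 calls of 1436, those of 50 to 200 kb 25 and 69 of 2668, and those over 200 kb 4 and 5 of 560. The median span was 23.9 kb for the protein-coding genes higher with THZ531, 42.2 kb for those higher with Endovion and 34.8 kb for all tested. In total RNA, genes over 15 kb of exon had 33 and 112 calls of 677 (4.87% and 16.5%) and genes with over 30 exons 15 and 79 of 564 (2.66% and 14%). Single-exon genes, which have no intron to splice, had 18 and 53 of 189 (9.52% and 28.0%), beside 6.77% and 12.4% of all protein-coding genes. In nascent RNA the single-exon genes leaned the other way, with 8 and 5 calls of 101 (7.92% and 4.95%), and the genes with over 30 exons had 2 and 2 of 355. The classes are described by their counts and were not tested.

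**Figure D5:**
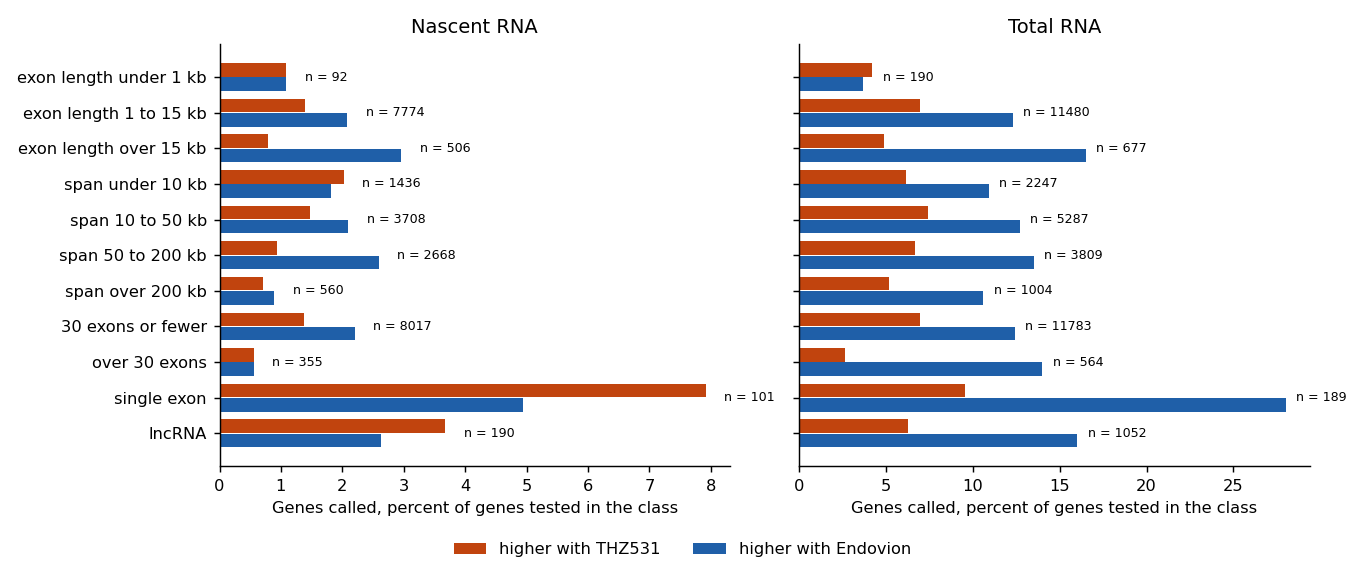
Percent of tested genes called higher with THZ531 (red) and higher with Endovion (blue) in classes of merged exon length, genomic span and exon number of protein-coding genes and in lncRNA genes, for nascent RNA (left) and total RNA (right), with the number tested beside the bars. In total RNA the blue bar of the single-exon genes, 28.0%, is the longest.

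The T>C share of single genes gave no call. At an adjusted p under 0.05 the edgeR interaction called 0 (0.0%) of 8627 genes higher with THZ531 and 0 (0.0%) higher with Endovion, and at an unadjusted p under 0.05 it had 326 and 124, 5.22% of genes. The median log2 difference of the share was 0.096. RBBP6 had the gap between nascent and total RNA described above, and its share gave an unadjusted p of 0.0001251 with an edgeR adjusted p of 0.2591.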

How the data were processed

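22RV1 cells were labelled with 4-thiouridine, and the RNA was alkylated and sequenced from its 3′ ends as single-end reads. Per the paper and the names of the deposited tables, SLAM-DUNK was used by the authors for mapping and for calling conversions. The authors deposited counts per 3′ UTR interval that carry no normalization, namely of all reads, of reads with a T>C conversion, of the conversions themselves and of the T bases covered. They also deposited a conversion rate, a fraction of covered T positions, and a score of read CPM, neither of which was used. The submitters' processing notes name Bowtie2 2.3.4.1, SAMtools 1.6 and DESeq2 1.38.2. The libraries carried molecular identifiers per the methods; whether the counts were reduced by them, and the settings of SLAM-DUNK, are not given in the sources used here. Intervals and floors therefore reflect counting error alone. The 4 libraries held 19565687 to 27983188 reads on genes each, and their replicates differed by more than counting error. The chi-square per degree of freedom between replicates was 21.5 with THZ531 and 21.97 with Endovion in total RNA. In nascent RNA it was 3.903 and 3.513.

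Of 96427 intervals on the main chromosomes (hg38), 92826 matched a transcript of GENCODE v44; unmatched intervals held 3.46% to 3.62% of T>C reads. Within a gene the best-covered of overlapping intervals was kept, and 57531 intervals were summed to 31015 genes. T>C reads and all reads of the 4 libraries entered the robust quasi-likelihood test of edgeR 4.0.16 (R 4.3.3) after filterByExpr and TMM scaling, which left 2 residual degrees of freedom. The T>C share, and in the same way the ratio of proximal to distal ends, was tested as an interaction with the library as a block. The scripts were tested on simulated data. Alternatives were DESeq2 1.42.0, other scalings, filters and sums, a replicate block and leaving out each library.

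The genes named are the 10 in each direction (nascent RNA) and the 5 in each direction (total RNA) with the smallest p. Each had to have an adjusted p below 0.05, a log2 difference of 1 or more in size, 20 or more reads in both libraries of the higher group and no overlap of the groups. Members of the lists are named too; the rule named no gene for the T>C share and none called in opposite directions in nascent and total RNA. Single genes of the comparison of ends were chosen after their values had been seen. The members and lists were chosen with earlier results of these data known. Some genes that the rule or the lists hold are not reported here.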

Additional observations from a re-analysis of the deposited data

How the results depend on the processing

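All 20 genes named by rule in nascent RNA kept their call under each alternative in which they were tested, except that the plain sum of all intervals, which counts 48.8% of T>C reads again through overlaps, kept 3 (TMEM201, CYP1A1 and ZKSCAN1) and the fit over all 10 libraries lost RNVU1-25 and HEXIM1. The 10 named in total RNA kept theirs. Some of these genes had over 20% T>C reads in a control library. With such genes left out, 15 of the 20 and 9 of the 10 were tested. In nascent RNA the genes higher with THZ531, 123 as reported, numbered 81 with DESeq2, 221 scaled by all reads, 193 without a filter, 1 with the plain sum and 242 at the threshold of the study, and ranged from 99 to 170 without each library in turn. Those higher with Endovion, 186, numbered 110 with DESeq2, 3 with the plain sum, 120 with T>C conversions in place of T>C reads (chosen after seeing the data) and 470 at the threshold of the study, and ranged from 134 to 252. In total RNA the counts at the threshold of the study were 362 and 1144, and without each library they ranged from 395 to 1540 and from 911 to 2060. The T>C share, with no call as reported, had 3 genes higher with THZ531 over all 10 libraries, 5 and 2 without a filter, 5 and 6 with the share centred, 137 and 76 at the threshold of the study, and 0 to 23 and 0 to 8 without each library. For the 3′ ends, 379 and 9 as reported, the counts were 209 and 4 of 349 genes at 500 reads per end and 61 and 0 of 189 in T>C reads, and ranged from 299 to 367 and from 1 to 13 without each library. The best-covered interval alone reversed FANCA, to -0.30, and POLE2, to -0.05, in total RNA, in both of which the proximal end was higher with THZ531, and 2 nascent and 18 total calls in all. The replicate number as a block gave 187 and 263 nascent and 710 and 1368 total calls. The labels give only a shared number, and the differences between replicates 1 and 2 correlated at 0.0341 and -0.0384 between the treatments. The cause of these changes was not tested. With 2 libraries a group, genes that were not called may still differ.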

Other observations

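Families outside the lists were chosen after their values had been seen and are given as counts with no test. Of 485 zinc finger genes (ZNF, ZSCAN, ZKSCAN and ZFP symbols) tested in total RNA, 168 (34.6%) were higher with Endovion and 28 (5.77%) with THZ531, beside 12.6% and 6.87% of all genes, with a median log2 difference of -0.48, and of 257 in nascent RNA 15 (5.84%) and 6 (2.33%), beside 2.16% and 1.43%. Many of these genes encode KRAB-type transcriptional repressors. Of 66 snoRNA genes, whose RNAs guide the modification of ribosomal RNA, 14 (21.2%) were higher with THZ531 and 1 (1.52%) with Endovion in total RNA, with a median of 0.53, and of 50 snRNA genes 7 (14%) and 1 (2.0%), beside 6.87% and 12.6% of all genes. Some of these small RNAs have near-identical copies, whose counts are uncertain. The libraries read the ends of polyadenylated transcripts, and whether the reads on these genes come from the small RNAs themselves was not tested. Ribosomal protein genes had 0 calls by the edgeR adjusted p among 81 in nascent and 0 among 94 in total RNA, with medians of 0.0 and 0.05.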
